A study of Mus musculus with 6 samples.

Results

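Accessible chromatin was described at 10 genes of extracellular matrix breakdown, the matrix metalloproteinase genes Mmp2, Mmp3, Mmp9, Mmp10, Mmp11, Mmp13, Mmp14 and Mmp16 and the inhibitor genes Timp2 and Timp3, in ATAC-seq of mouse osteoblasts with and without the secretory kinase gene Fam20c. The 10 genes were a chosen list. Their regions were found by joining the peaks of 6 libraries wherever they shared 1 bp or more and taking every joined region that overlapped a gene span extended by 20 kb on each side. This gave 65 of the 89410 regions in the series. The genes were 10 of 49939 with a place in the RefSeq annotation of GRCm38.p6, which shares its coordinates with the mm10 build of the lists.

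The control group, OB Fam20c f/f, was an immortalized mouse osteoblast line that carries floxed Fam20c, and 3 of its libraries were used. The other group, OB Fam20c KO, with 3 libraries, was made from that line with a lentivirus carrying Cre recombinase. Both groups were therefore immortalized and came from the floxed line, and they differed in Cre infection as well as in Fam20c. Each group was 1 line in culture with no further treatment, and nothing states that the replicates were separate cultures, so that p-values measure only the spread between these libraries, which may be technical.

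Matrix metalloproteinases are zinc enzymes that cut collagens, proteoglycans and other matrix proteins outside the cell or at its surface, and tissue inhibitors of metalloproteinases (TIMPs) block them. In bone, MMP13 is the collagenase made by osteoblasts and hypertrophic chondrocytes, MMP14 cuts collagen at the cell surface and activates pro-MMP2, and MMP9 is best known from osteoclasts. TIMP2 both inhibits MMPs and takes part in the activation of pro-MMP2 by MMP14. ATAC-seq marks open chromatin by cutting with the Tn5 transposase, and an open region near a gene is not a measure of its RNA.

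Mmp3, Mmp10 and Mmp13 lie close together on chromosome 9. MMP3 and MMP10 are the stromelysins, which cut proteoglycans and can activate other MMPs, and MMP13 is a collagenase. Their promoters are shown because the sequence upstream of all 3 gene starts holds matches to the same 2 motifs while the peaks found there differ. The RefSeq sequences (GRCm38.p6, plus strand) are the 250 bases before each gene start, chr9:7445572-7445821 for Mmp3, chr9:7502092-7502341 for Mmp10 and chr9:7272264-7272513 for Mmp13. Capitals mark matches to AP-1 (TGAGTCA), Runx (TGTGGT), PEA3 (AGGAAG), an E-box (CAGCTG) and a TATA box, spelled as TATAAA, searched on both strands, so that a Runx match can read ACCACA and an AP-1 match TGACTCA.
Mmp3: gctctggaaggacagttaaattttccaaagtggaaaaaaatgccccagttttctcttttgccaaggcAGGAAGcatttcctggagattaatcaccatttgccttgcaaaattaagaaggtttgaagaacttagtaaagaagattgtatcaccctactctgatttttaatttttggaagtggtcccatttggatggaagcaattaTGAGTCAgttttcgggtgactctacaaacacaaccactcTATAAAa
Mmp10: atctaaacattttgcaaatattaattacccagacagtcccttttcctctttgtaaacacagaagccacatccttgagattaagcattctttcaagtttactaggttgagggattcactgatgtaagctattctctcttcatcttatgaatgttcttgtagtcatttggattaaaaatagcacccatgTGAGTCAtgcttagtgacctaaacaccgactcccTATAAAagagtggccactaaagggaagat
Mmp13: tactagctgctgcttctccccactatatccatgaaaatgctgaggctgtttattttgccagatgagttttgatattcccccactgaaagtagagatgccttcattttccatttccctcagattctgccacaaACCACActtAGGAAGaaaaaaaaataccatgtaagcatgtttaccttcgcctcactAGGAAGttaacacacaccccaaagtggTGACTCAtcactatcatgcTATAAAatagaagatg
All 3 promoters held an AP-1 and a TATA match. AP-1 is a dimer of Fos and Jun proteins. The AP-1 match ended 40 bases before the start of Mmp3, 57 before that of Mmp10 and 29 before that of Mmp13. The TATA match ended 2, 24 and 11 bases before these starts. All such distances are to the annotated starts, and whether transcription begins there in these cells was not tested. Over the 32851 promoters in the RefSeq table, 4.463% held the AP-1 letters and 12.37% the TATA letters. Mmp13 also held a Runx match and 2 PEA3 matches, and Mmp3 held 1 PEA3 match. Runx letters were found in 14.05% of all promoters, PEA3 letters in 29.48%, and AP-1 together with Runx in 0.7123%. The search listed letters only, and overlap of 1 motif with another did not occur in these 3 promoters.

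The other promoters at hand were richer in G and C. The 250 bases before the start were 37.6% G or C for Mmp3, 37.2% for Mmp10 and 40.4% for Mmp13, against 63.2% for Mmp11, 55.2% for Mmp14, 68% for Timp2 and 65.6% for Timp3. None of those 4 held an AP-1 or TATA match. Mmp14 held a PEA3 and a Runx match, Timp3 a PEA3 match and Timp2 an E-box, which 13% of all promoters held, while Mmp11 held none of the 5 motifs. The promoter of Mmp11 (chr10:75932503-75932752, minus strand) is shown because the region over it stood higher in the KO libraries.
Mmp11: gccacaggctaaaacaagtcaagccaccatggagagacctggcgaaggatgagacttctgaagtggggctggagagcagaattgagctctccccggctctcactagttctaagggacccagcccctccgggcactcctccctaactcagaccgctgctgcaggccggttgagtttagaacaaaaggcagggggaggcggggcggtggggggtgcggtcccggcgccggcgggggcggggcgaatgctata
For Mmp2, Mmp9 and Mmp16, whose strand was not used here, either end of the gene span was taken as a possible start.

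**Figure D1:**
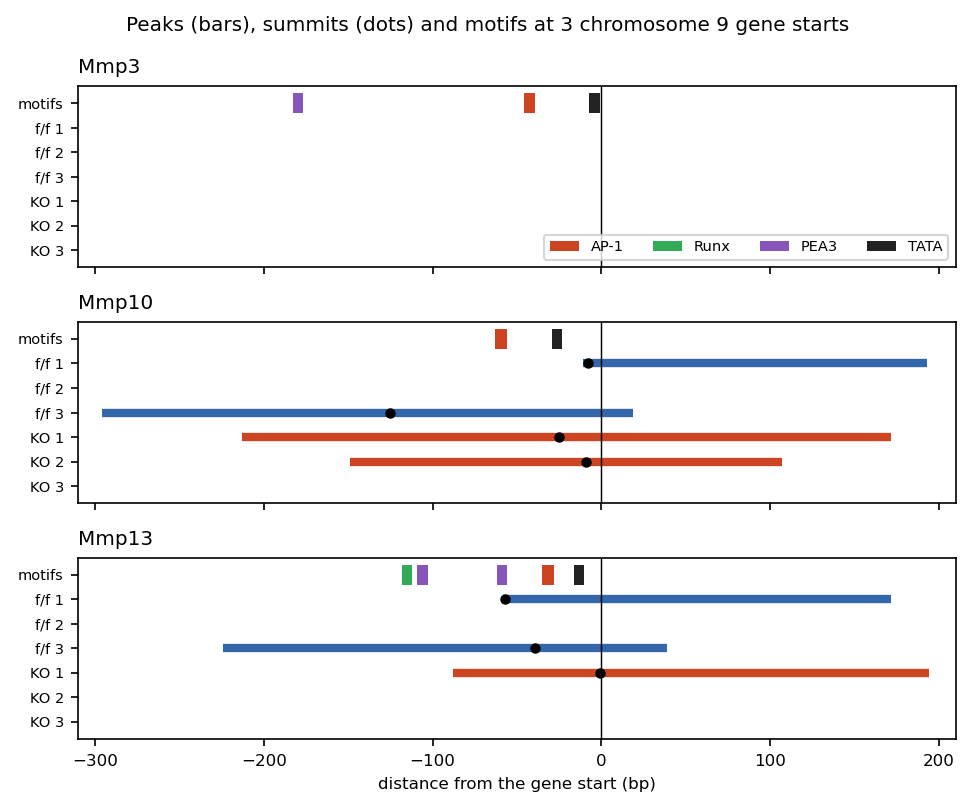
Peaks (bars, blue for f/f and red for KO libraries), their summits (black dots) and promoter motif matches (coloured blocks) at the starts of Mmp3, Mmp10 and Mmp13, by distance from the gene start in bp. Mmp3 had no peak in any of the 6 libraries, Mmp10 had a peak in 4 and Mmp13 in 3.

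Mmp3 had no region within 20 kb in any library. The start of Mmp10 had a region at chr9:7502046-7502535 with peaks in f/f replicates 1 and 3 and in KO replicates 1 and 2. To compare libraries, each region was given a standing in every list with a peak there. It is the percentile of the region's highest −log10 q among all regions with a peak in that list, where 100 is the highest. The Mmp10 start region stood at 0.865 and 18.5 in f/f replicates 1 and 3 and at 29.1 and 3.96 in KO replicates 1 and 2, so that it was among the weaker peaks of every list that held it and the groups overlapped. The start of Mmp13 had a region at chr9:7272290-7272708 that stood at 2.44 and 23.3 in f/f replicates 1 and 3 and at 26.2 in KO replicate 1. Neither region had a peak in f/f replicate 2 or KO replicate 3. The summits lay 8 and 125 bases before the Mmp10 start in the f/f libraries and 25 and 9 bases before it in the KO libraries. At Mmp13 the summits lay 57 and 39 bases before the start in f/f replicates 1 and 3 and 1 base before it in KO replicate 1. The peak of f/f replicate 3 over the Mmp13 start held all 5 motif matches, and every peak there held the AP-1 and TATA matches. At Mmp10 the peak of f/f replicate 1 began 11 bases before the start, past both matches, and the other 3 peaks held both.

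The lists themselves differed in length. They held 64033, 62781 and 74797 peaks in the f/f libraries and 64141 and 64582 in KO replicates 1 and 2, but 32958 in KO replicate 3, which stood apart, so that results were also computed without it. The 29849 regions that had a peak in all 6 lists had a median standing of 53.2 in KO replicate 3 and of 75.4 to 79.5 in the others. Of 8 osteoblast marker genes, 5 had a peak within 1 kb of their start in all 6 libraries (Runx2, Sp7, Dlx5, Col1a1 and Spp1), Alpl had one in 5 libraries, and Ibsp and Bglap, genes of late osteoblasts, had none. Of the 4 macrophage and osteoclast markers none had a start peak in all 6 libraries (Ptprc, Csf1r and Adgre1 in 0, Acp5 in 1), nor had the 2 adipocyte or the 2 endothelial markers, while Sox9 of the 3 chondrocyte markers had one in all 6 and Col2a1 in 5. The region at the Fam20c start had a peak in all 6 libraries, at a standing of 92.5, 94.7 and 92.9 in f/f and 97.7, 96.2 and 94.9 in KO. A start peak does not test for the deletion. A Fam20c region at chr5:138740270-138740641, 14440 bp outside the gene, had a peak in the 3 f/f libraries and in no KO library.

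With all 6 libraries, no MMP or TIMP region had a peak in every library of 1 group and in none of the other. Of the 65 regions, 0 had a peak in all 3 f/f libraries and in no KO library, against 3.75% of all regions, and 0 had a peak in all 3 KO libraries and in no f/f library, against 0.179% of all regions. Without KO replicate 3, 0 were f/f-only (3.82% of all regions) and 1 was KO-only (2.93% of all regions). That region, at chr11:118342504-118342820 inside Timp2 and the overlapping Cep295nl, had a peak in KO replicates 1 and 2 only, at a standing of 18.7 and 19.98.

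The share of these regions found in every list was above that of all regions, a difference that was not tested. A peak was found in all 6 libraries at 35 of the 65 (53.8%, against 33.4% of all regions), in all but KO replicate 3 at 12, and in a single library at 9. The regions were also wider, with a median of 853 bp against 639 bp. By library, 52, 51 and 55 of the 65 regions had a peak in f/f and 56, 59 and 36 in KO. KO replicate 3 was the lowest and KO replicate 2 the highest, so that the groups overlapped, and the KO mean lay 2.33 regions below the f/f mean with all 6 libraries and 4.83 above it without KO replicate 3. An exact two-sided permutation test of 3 against 3 cannot give a p below 0.1, and the numbers of regions with a peak at the 9 genes that had any gave p from 0.3 to 1.

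**Figure D2:**
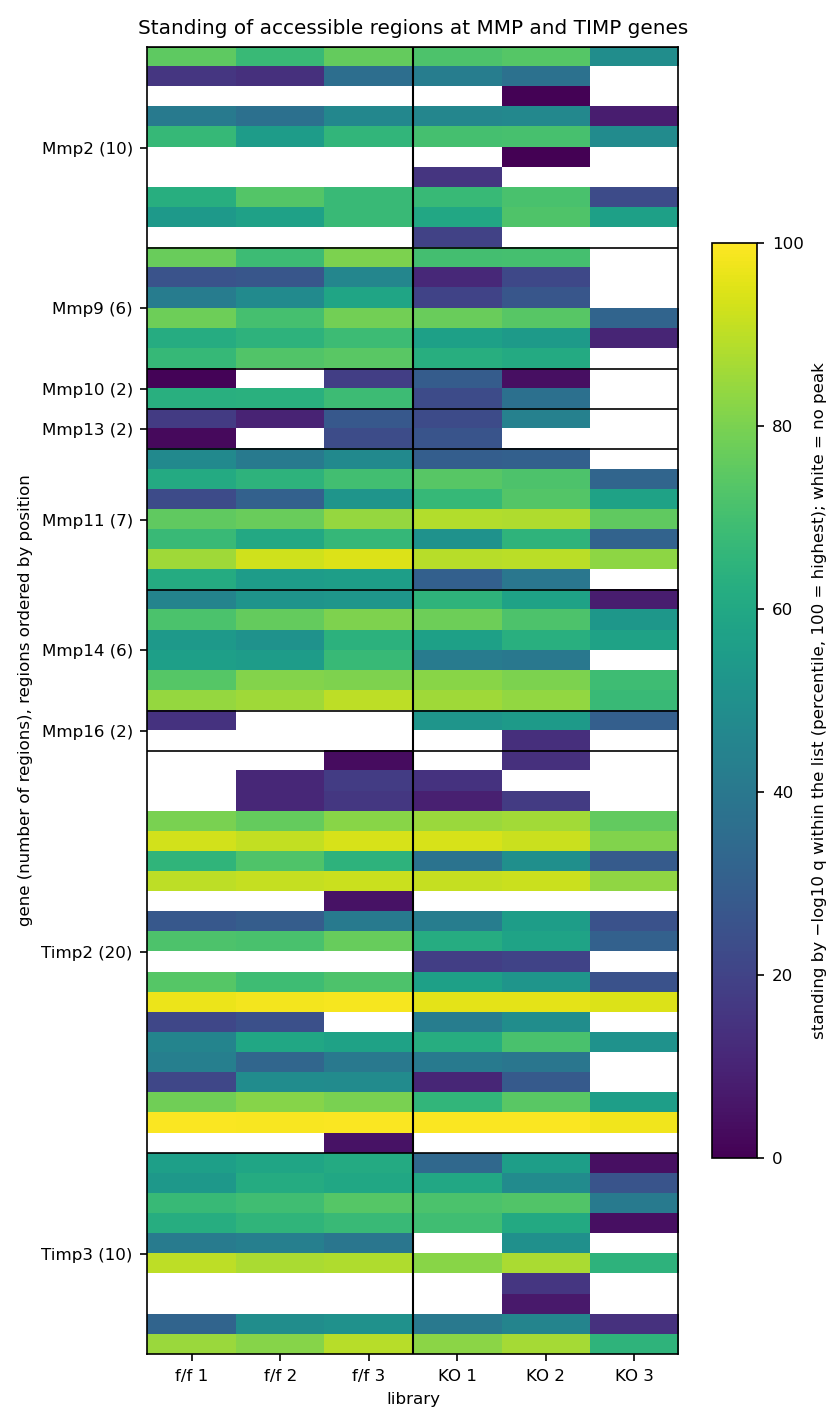
Standing of each of the 65 regions (rows, grouped by gene) in each library (columns), as the percentile by −log10 q within the library's own list. White means no peak. KO 3 has a peak in 36 of the 65 rows, the other libraries in 51 to 59.

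To ask whether regions open in both groups stood higher or lower in KO, the regions with a peak in all 6 lists were ranked among themselves in each list and the ranks, as normal scores, were compared with limma. Of the 35 MMP and TIMP regions, 4 were lower in KO (11.43%) and 5 higher (14.29%) at a Benjamini-Hochberg adjusted p below 0.05 over all 29849 regions, of which 10.3% were lower and 12.2% higher. Without KO replicate 3, 7 of 47 regions were lower (14.89%) and 4 higher (8.511%), against 7.86% and 8.02% of the 46992 regions tested. With 6 lists the shares were close to those of all regions, and the set as such was not tested with either. The median KO minus f/f difference over the 35 regions was −0.87 percentile points, against −0.24 over all regions tested.

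Regions whose groups did not overlap were counted on the same ranks among the shared regions, which differ from the standing within a whole list. With 6 lists, all KO libraries ranked below all f/f libraries at 4 of the 35 regions (11.43%, against 20.9% of all regions tested) and above them at 6 (17.14%, against 21.1%). Without KO replicate 3 the KO libraries ranked below at 13 of the 47 regions (27.66%, against 26.3%) and above at 12 (25.53%, against 25.6%). In the accounts of single regions, libraries are called above or below each other by their standing within the whole list. On that scale the regions in all 6 lists stood lower in KO replicate 3 (median 53.2) than in the other libraries (75.4 to 79.5). A low standing of KO replicate 3 at such a region is therefore not by itself a difference, and limma used the ranks among shared regions. The called regions lay at Mmp2, Mmp9, Mmp10, Mmp11, Mmp14, Timp2 and Timp3, and they are described gene by gene.

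**Figure D3:**
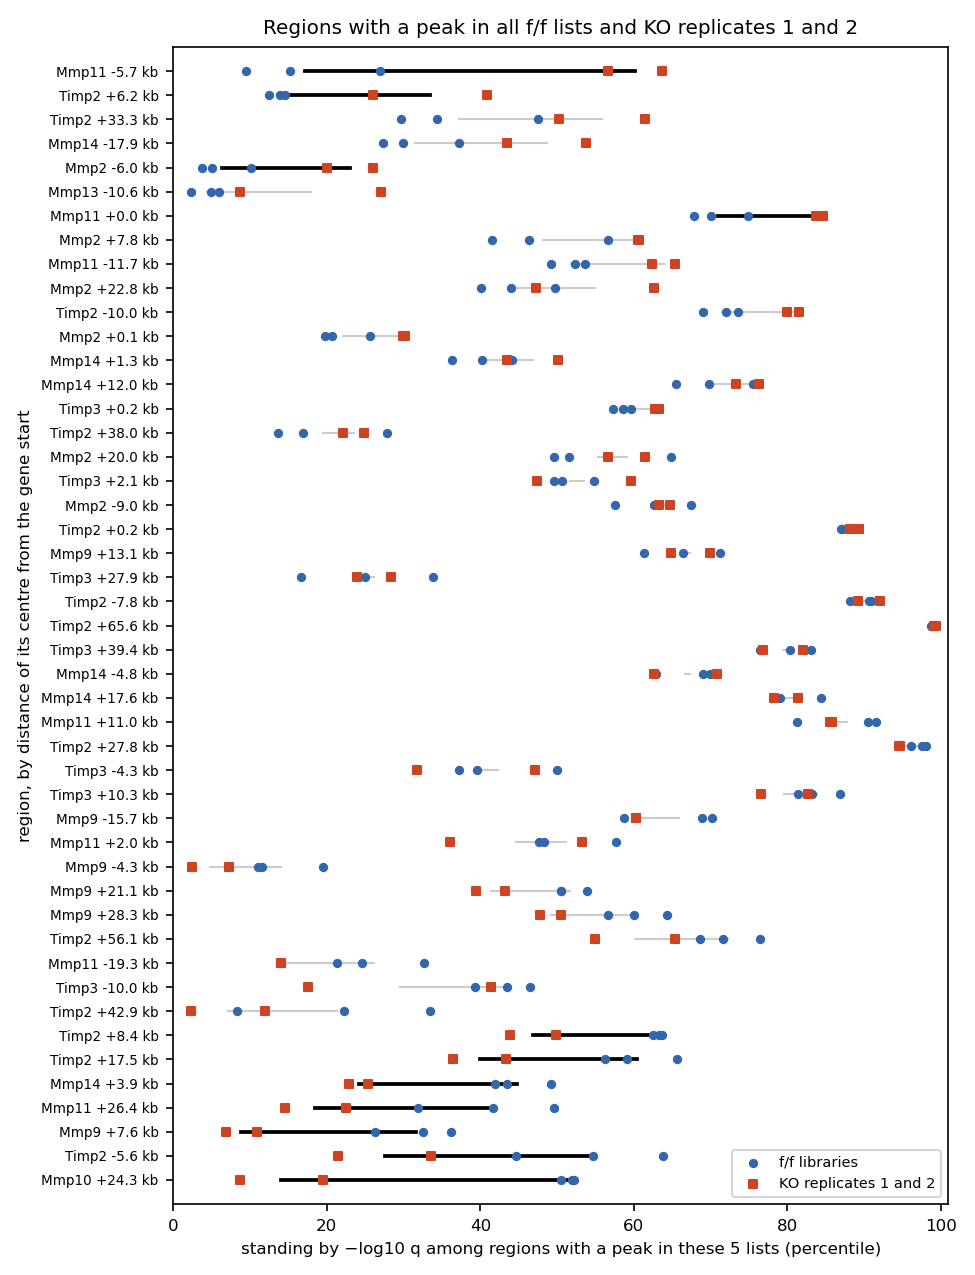
Standing of the 47 regions with a peak in the 3 f/f libraries (blue circles) and KO replicates 1 and 2 (red squares), as the percentile among the 46992 regions shared by these 5 lists, ordered by the KO minus f/f difference and named by distance from the gene start in kb (for Mmp2 and Mmp9 from the lower end of the span). Lines join the group means, and black lines mark the 7 lower and 4 higher regions with an adjusted p below 0.05 by limma.

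Mmp10 lost standing at a region beyond its far end. The region at chr9:7525980-7527352, 15738 bp past the gene span and inside no gene, stood at 63.3, 63.4 and 68.4 in the f/f lists and at 23.0 and 36.7 in KO replicates 1 and 2, and KO replicate 3 had no peak there. All f/f libraries were above both KO libraries. The fold over local background at the summit was 11.4, 9.13 and 11.7 in f/f and 4.86 and 6.55 in KO replicates 1 and 2. Among the regions shared by the 5 lists the mean standing was 51.5 ± 0.94 (SD, n = 3) in f/f and 14.1 ± 7.57 (SD, n = 2) in KO. The difference passed limma by −log10 q (−1.15 in normal-score units, SE 0.159, adjusted p = 0.00929) and by fold (adjusted p = 0.000737). With a peak absent from KO replicate 3, the region could not enter the 6-list test.

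Mmp13 had a region at chr9:7261534-7262277, 10237 bp before its start and in the span of the uncharacterized gene Gm31639. It stood at 17.3, 10.1 and 27.7 in f/f and at 23.0 and 44.0 in KO replicates 1 and 2, with no peak in KO replicate 3. The groups overlapped on this scale. Among the regions shared by the 5 lists it ranked at 5.89, 2.29 and 4.96 in f/f and at 8.73 and 27.1 in KO. There the groups did not overlap, and limma over the 5 lists gave an adjusted p of 0.0851. Other MMP genes of this cluster on chromosome 9 had 0 to 3 regions. Mmp1a and Mmp1b, the rodent counterparts of interstitial collagenase, had no region within 20 kb in any library. Mmp12, the macrophage elastase, had 1 region, at its start, with a peak in every library but f/f replicate 2. Mmp20 had 1 region, Mmp7 and Mmp8 had 2 each and Mmp27 had 3, some of them shared between neighbouring genes. Mmp27 had 1 region in all 6 lists and a start peak in 5 libraries.

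The gelatinases MMP2 and MMP9 cut denatured collagen and basement membrane collagen. Mmp2 (chr8:92827290-92853421) had 10 regions, 5 of them in all 6 lists, with a peak at 6, 6 and 6 in f/f and at 8, 8 and 5 in KO. Of the 4 regions seen in a single library, those at chr8:92838781-92839023 and chr8:92869293-92869482 were in KO replicate 1 and those at chr8:92826146-92826427 and chr8:92836045-92836271 in KO replicate 2. They stood between 0.268 and 19.6.

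The region over the lower end of the Mmp2 span, chr8:92827169-92827710, stood at 41.3, 36.9 and 46.3 in f/f and at 46.0, 46.6 and 8.07 in KO. KO replicate 3 was the lowest and the groups overlapped (limma adjusted p = 0.868 with 6 lists and 0.169 without KO replicate 3). The highest Mmp2 region, chr8:92817771-92818743, stood at 75.2, 67.6 and 76.2 in f/f and at 72.2, 73.8 and 48.9 in KO, with an adjusted p of 0.823, or 0.862 without KO replicate 3. The largest difference among the Mmp2 regions in all 6 lists was at chr8:92849327-92850857, inside the gene, where mean standing among the shared regions was 22.4 ± 4.30 (SD, n = 3) in f/f and 39.4 ± 15.9 (SD, n = 3) in KO, and it did not pass limma (adjusted p = 0.122, and 0.277 without KO replicate 3).

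A further Mmp2 region rose when KO replicate 3, which had no peak there, was left out. At chr8:92821060-92821613, 5677 bp outside the span, it stood at 15.8, 13.7 and 36.0 in f/f and at 42.3 and 37.4 in KO replicates 1 and 2. Both KO libraries were above all f/f libraries. The difference was 0.827 in normal-score units (SE 0.172, limma adjusted p = 0.0261), and by fold the adjusted p was 0.0658.

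Mmp9 (chr2:164940326-164955850) had 6 regions. All 6 had a peak in every f/f library and in KO replicates 1 and 2, while KO replicate 3 had a peak at 2 of them. None lay within 1 kb of an end of the span. The highest, chr2:164952994-164953805 inside the gene, stood at 78.0, 70.5 and 78.7 in f/f and at 77.3, 73.9 and 32.4 in KO, and did not pass limma (adjusted p = 0.558 with 6 lists and 0.902 without KO replicate 3).

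Of the Mmp9 regions, 2 passed limma as lower in KO, 1 with 6 lists and 1 without KO replicate 3. The region at chr2:164947505-164948422 inside Mmp9 stood at 41.9, 47.7 and 58.9 in f/f and at 20.2 and 26.9 in KO replicates 1 and 2, with no peak in KO replicate 3. Both KO values were below all f/f values, and the difference over the 5 lists was −0.88 in normal-score units (SE 0.137, limma adjusted p = 0.0122, and 0.0168 by fold). The region at chr2:164960564-164962264, within the neighbouring neuronal transporter gene Slc12a5, stood at 62.1, 64.7 and 68.4 in f/f and at 56.8, 54.6 and 10.3 in KO. All KO libraries were below all f/f libraries, with a mean among the shared regions of 29.1 ± 1.61 (SD, n = 3) in f/f and 13.2 ± 6.05 (SD, n = 3) in KO. Its limma adjusted p was 0.0267 with 6 lists and 0.134 without KO replicate 3, and the call was also lost without any 1 f/f library, without KO replicate 2 and by fold (adjusted p = 0.142).

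MMP11, or stromelysin-3, is activated inside the cell by the convertase furin. Mmp11 (chr10:75923221-75932502, minus strand) had 7 regions, with a peak at all 7 in every library but KO replicate 3, which had 5. The highest was not at the gene start but at chr10:75920814-75922255, in the span of the chromatin remodelling gene Smarcb1. It stood at 85.8, 92.7 and 94.6 in f/f and at 89.1, 89.5 and 82.8 in KO, so that the groups overlapped (limma adjusted p = 0.714, and 0.642 without KO replicate 3).

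Mmp11 held the largest rise among the 35 regions in all 6 lists. The region at chr10:75937877-75938541, 5375 bp before the Mmp11 start and in the span of the neighbouring gene Gm867, stood at 23.0, 31.2 and 52.2 in f/f and at 67.2, 73.1 and 57.8 in KO. All KO libraries, KO replicate 3 included, were above all f/f libraries. The fold over local background was 4.20, 3.94 and 6.15 in f/f and 9.24, 10.6 and 6.84 in KO. Among the shared regions the mean standing was 5.76 ± 3.87 (SD, n = 3) in f/f and 43.8 ± 10.7 (SD, n = 3) in KO. The difference was 1.47 in normal-score units (SE 0.195, limma adjusted p = 0.00127). It also passed without KO replicate 3 (adjusted p = 0.0149), without each other library and by fold (adjusted p = 0.0291).

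The region over the Mmp11 start, chr10:75931917-75932993, which holds the promoter sequence of Mmp11, stood higher in KO as well. It stood at 75.5, 77.1 and 84.0 in f/f and at 88.4, 87.9 and 75.6 in KO. On this scale KO replicate 3 lay within the f/f range, but among the regions shared by all lists the mean was 54.7 ± 5.31 (SD, n = 3) in f/f and 74.7 ± 0.95 (SD, n = 3) in KO. The difference was 0.547 in normal-score units (SE 0.119, limma adjusted p = 0.0116, and 0.0419 without KO replicate 3). It passed without each library in turn and did not pass by fold (adjusted p = 0.127).

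Lower standing was found at the far side of Mmp11. The region at chr10:75905544-75906623, in Smarcb1 and 16598 bp past the Mmp11 span, stood at 61.4, 55.2 and 55.9 in f/f and at 30.6 and 39.7 in KO replicates 1 and 2, with no peak in KO replicate 3. Both KO values were below all f/f values (−0.68 in normal-score units over the 5 lists, SE 0.170, limma adjusted p = 0.0443, and 0.0458 by fold). Thus 2 regions rose and 1 fell in the neighbourhood of 1 gene.

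**Figure D4:**
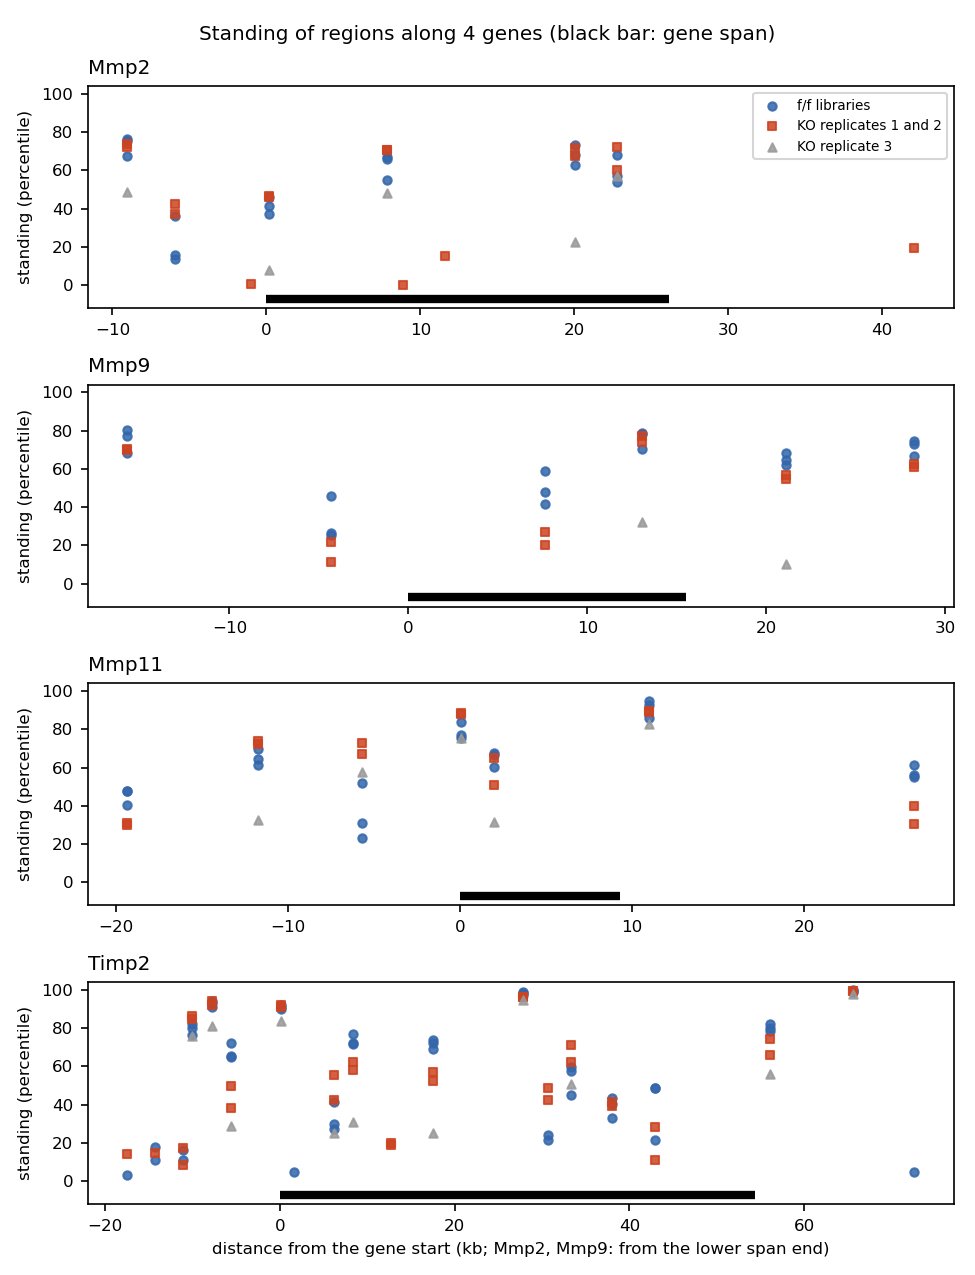
Standing of regions by −log10 q within each list (percentile) along Mmp2, Mmp9, Mmp11 and Timp2, by distance of the region's centre from the gene start in kb, or from the lower end of the span for Mmp2 and Mmp9. Black bars mark the gene spans. At Mmp11 the KO libraries (red squares and grey triangle) lie above the f/f libraries (blue circles) at the region 5375 bp before the start.

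MMP14 and MMP16 are membrane-type metalloproteinases anchored at the cell surface. Mmp14 (chr14:54431598-54442456) had 6 regions, with a peak at all 6 in every library but KO replicate 3, which had 5. The region over its start, chr14:54431219-54434526, stood at 53.9, 50.9 and 64.3 in f/f and at 57.0, 62.9 and 57.5 in KO. It held the largest difference of the Mmp14 regions in all 6 lists, with a mean of 18.6 ± 3.39 (SD, n = 3) in f/f and 32.8 ± 19.1 (SD, n = 3) in KO among the shared regions, and did not pass limma (adjusted p = 0.227 with 6 lists and 0.363 without KO replicate 3). The KO libraries ranked there at 18.8, 24.9 and 54.5, and the value of KO replicate 3 came from a peak away from the start.

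The peaks joined in that region differed in place. In the f/f libraries and in KO replicates 1 and 2 a summit lay between 49 and 118 bases before the Mmp14 start. In KO replicate 3 no peak covered the start, and the summit of its peak nearest to it lay 684 bases after it. That peak had a −log10 q of 2.39. The value of KO replicate 3 for the region, a −log10 q of 20.4, came from another peak that began more than 1 kb after the start. The highest Mmp14 region, chr14:54448805-54449585 beyond the gene's far end, stood at 84.1, 85.7 and 90.1 in f/f and at 85.9, 83.9 and 67.6 in KO (limma adjusted p = 0.544, and 0.713 without KO replicate 3).

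A region inside Mmp14 was lower in KO. At chr14:54435159-54435799 the standing was 56.5, 55.4 and 67.6 in f/f and 41.7 and 40.2 in KO replicates 1 and 2, and KO replicate 3 had no peak. Both KO values were below all f/f values. The difference was −0.57 in normal-score units (SE 0.110, limma adjusted p = 0.0210 over the 5 lists), and by fold the adjusted p was 0.0731.

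Mmp16 (chr4:17853072-18117479) had 2 regions in a span of 264408 bp. The region over the lower end of its span, chr4:17852734-17854251, had a peak in all 3 KO libraries and in 1 of 3 f/f libraries. It stood at 14.7 in f/f replicate 1 and at 52.3, 54.4 and 30.4 in KO, and f/f replicates 2 and 3 had no peak. The fold over local background was 4.36 in f/f replicate 1 and 9.29, 9.32 and 4.92 in KO. All 3 KO libraries, the short list of KO replicate 3 included, were thus above the 1 f/f library with a peak. The presence test over 1 gene cannot pass (exact two-sided permutation p = 0.3 for the number of regions, 1, 0 and 0 in f/f against 1, 2 and 1 in KO), and the region could not enter the ranking, which needs a peak in every list. The other Mmp16 region, chr4:17993065-17993581 inside the gene, had a peak in KO replicate 2 only, at a standing of 13.5.

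TIMP2 inhibits most MMPs. Timp2 (chr11:118301061-118355411, minus strand) had 20 regions, the most of the 10 genes, with a peak at 14, 16 and 18 in f/f and at 17, 17 and 11 in KO. Its start region, chr11:118354521-118355963, stood at 90.1, 91.2 and 91.9 in f/f and at 91.1, 92.1 and 83.5 in KO and did not pass limma (adjusted p = 0.676 with 6 lists and 0.708 without KO replicate 3). Among the shared regions it ranked at 79.6, 81.8 and 79.8 in f/f and at 81.4, 83.2 and 82.3 in KO. The highest region, chr11:118288854-118290771, lay in the neighbouring deubiquitinase gene Usp36 and stood between 97.9 and 99.6 in all 6 libraries (adjusted p = 0.890, and 0.803 without KO replicate 3).

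Both directions were found within the Timp2 neighbourhood. The region at chr11:118337472-118338326, in Timp2 and Cep295nl and 17085 bp after the start, had the largest difference in mean percentile among the Timp2 regions in all 6 lists (fell by 22.5 points). It stood at 73.8, 68.8 and 72.1 in f/f and at 56.9, 52.2 and 25.2 in KO, with all KO libraries below all f/f libraries. The difference was −0.69 in normal-score units (SE 0.144, limma adjusted p = 0.00939, and 0.0384 without KO replicate 3). The region at chr11:118346535-118347496, 7915 bp after the start, stood at 72.0, 71.4 and 76.9 in f/f and at 62.0, 58.1 and 30.9 in KO. Again all KO libraries were below all f/f libraries, with a difference of −0.56 (SE 0.121, adjusted p = 0.0113, and 0.0435 without KO replicate 3). Both calls were kept without each library in turn and lost by fold, with adjusted p of 0.129 and 0.356.

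A pair of Timp2 calls depended on which lists were used. The region at chr11:118348709-118349774, 5637 bp after the start, stood at 27.4, 29.7 and 41.2 in f/f and at 42.3, 55.7 and 25.2 in KO. KO replicate 3 was the lowest on this scale, but among the shared regions the means were 4.06 ± 0.37 (SD, n = 3) in f/f and 14.2 ± 7.24 (SD, n = 3) in KO. It was higher in KO with 6 lists (limma adjusted p = 0.0323, and 0.0940 by fold) and without KO replicate 3 (adjusted p = 0.0302, and 0.0115 by fold). The 6-list call was lost by fold and without any 1 f/f library or without KO replicate 2. It was also lost with percentiles in place of normal scores (limma adjusted p = 0.109) and with peaks of −log10 q of 5 or more (0.0685). The region at chr11:118360584-118361366, 5173 bp before the start, stood at 65.3, 72.3 and 64.6 in f/f and at 38.0, 49.7 and 28.8 in KO. All KO libraries were below all f/f libraries within their own lists, but among the shared regions KO replicate 3 (24.4) was above f/f replicate 3 (22.3). The adjusted p was 0.0528 with 6 lists and 0.0459 without KO replicate 3, and 0.0508 without it by fold, so that the call was lost by fold.

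The remaining Timp2 calls were 2 regions higher in KO. These were chr11:118321727-118322453 inside the gene (adjusted p = 0.0321) and chr11:118365082-118365777 before its start (adjusted p = 0.0305). Neither passed without KO replicate 3 (adjusted p = 0.109 and 0.0994) or by fold (adjusted p = 0.203 for both), and each was also lost without some other library. The first was lost with percentiles in place of normal scores too (limma adjusted p = 0.058). The second stood at 79.9, 76.3 and 82.2 in f/f and at 84.9, 86.3 and 75.8 in KO, so that KO replicate 3 was below every f/f library within its own list. Among the shared regions, the scale of the test, it ranked at 58.7, 51.6 and 56.3 in f/f and at 68.5, 71.0 and 74.1 in KO. There KO replicate 3 was the highest.

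TIMP3 is the TIMP that binds to the extracellular matrix and also inhibits ADAM and ADAMTS enzymes. Timp3 (chr10:86300412-86349505) lies within the synapsin gene Syn3, so that regions inside it belong to both spans. It had 10 regions, 7 of them in all 6 lists, with a peak at 8, 8 and 8 in f/f and at 7, 10 and 7 in KO. The start region, chr10:86300090-86301224, stood at 67.4, 69.2 and 73.7 in f/f and at 71.8, 72.8 and 41.2 in KO (limma adjusted p = 0.600 with 6 lists and 0.446 without KO replicate 3). Among the shared regions it ranked at 36.2, 38.2 and 37.3 in f/f and at 42.0, 42.7 and 37.2 in KO. The highest Timp3 region, chr10:86310325-86311178, 9913 bp after the start, stood at 90.0, 87.2 and 88.2 in f/f and at 82.3, 87.2 and 64.7 in KO (adjusted p = 0.207, and 0.414 without KO replicate 3).

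The largest difference at Timp3 was at chr10:86289729-86291052, 9360 bp before the start. It stood at 56.6, 58.9 and 61.0 in f/f and at 33.9, 56.1 and 3.98 in KO. All KO libraries were below all f/f libraries, KO replicate 2 by the least. The difference was −0.82 in normal-score units (SE 0.241, limma adjusted p = 0.0383), but the adjusted p was 0.242 without KO replicate 3, 0.0778 by fold, and above 0.05 also without KO replicate 1 or any 1 f/f library. With percentiles in place of normal scores the limma adjusted p was 0.0615. A region inside the gene at chr10:86307157-86307497 stood at 41.7, 43.2 and 39.2 in f/f and at 50.2 in KO replicate 2, with no peak in the other KO libraries.

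The other genes of matrix breakdown, 31 in a list of further MMPs, inhibitors, the plasminogen system, ADAM and ADAMTS proteases and activators, had a region at 29. Of their 160 regions, 1 was f/f-only and 1 KO-only, beside 3.75% and 0.179% of all regions. The f/f-only region lay in Mmp17, a membrane-type MMP (chr5:129601903-129602505), and stood at 2.44, 13.4 and 5.77. The KO-only region lay 3968 bp outside Mmp28, or epilysin (chr11:83467008-83467548), and stood at 53.1, 47.3 and 16.5. Of the 76 regions in all 6 lists, 4 at 4 genes were lower in KO (5.263%) and 14 at 11 genes higher (18.42%), beside 10.3% and 12.2% of all regions tested. Without KO replicate 3, 5 of 110 regions were lower (4.545%) and 13 higher (11.82%), beside 7.86% and 8.02% of all regions tested, and of the 6-list calls 1 of 4 lower and 9 of 14 higher were kept.

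Those 14 higher regions lay at protease and inhibitor genes alike. The largest difference was at Adamts5, an aggrecan-cutting protease, at chr16:85887328-85888289, which stood at 6.96, 19.2 and 30.5 in f/f and at 67.3, 77.1 and 48.9 in KO (limma adjusted p = 0.000267, and 0.00606 without KO replicate 3). All KO libraries were above all f/f libraries. A region at Plaur, the urokinase receptor (chr7:24448823-24449589), gave an adjusted p of 0.000659, and of 0.00737 without KO replicate 3. Mmp24, Mmp15, Timp1, Reck, Furin, Adam10, Adamts1 and Adamts4 also had a higher region, with adjusted p from 0.00315 to 0.0457, and those of Mmp15, Timp1 and Adam10 were not kept without KO replicate 3. The lower regions were at Mmp28 (chr11:83455315-83456223, 68.1, 67.2 and 68.8 in f/f and 43.5, 47.7 and 3.80 in KO, adjusted p = 0.00265, and 0.0141 without KO replicate 3), Furin, Ctsk and Mmp17, and the latter 3 were not kept without KO replicate 3.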

How the data were processed

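Open chromatin was mapped by ATAC-seq in 3 f/f and 3 KO libraries, which were grouped by their labels. Per the study's methods, the authors filtered the reads (Trimmomatic), mapped them with BWA to mm10 and ran MACS2 2.1.2 with a q-value limit of 0.05. Each deposited list belongs to 1 library and gives, per peak, a fold over local background at the summit (a ratio) and a −log10 q, both as the authors' caller wrote them. The lowest −log10 q was 1.30 to 1.34. Read totals were not used, and because −log10 q and fold are not on 1 scale across libraries, ranks within a list were compared in place of the values.

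Peaks were joined where they shared 1 bp or more. A region took the highest peak of each library. Gene spans, strands and promoters came from RefSeq GRCm38.p6, and all 10 genes and 7 of their promoters matched. Ranks among regions with a peak in every list used were turned into normal scores and tested with limma 3.58.1 (R 4.3.3, and Python 3.11.15 otherwise), with Benjamini-Hochberg adjustment over all regions tested. The test was tried on simulated data whose spread was taken without KO replicate 3, so the trial does not cover the spread that this list adds. Regions with no peak in a list were not imputed. Other peak limits, joining rules, spans, ranked values and left-out libraries were tried. The text names the start, highest, group-only and most different region of each gene, and every region past the threshold. The members, lists and tests were chosen with earlier results of these data known. Values of 1 gene in the list of other genes are not reported here.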

Additional observations from a re-analysis of the deposited data

How the results depend on the processing

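The 0 f/f-only regions became 1 with spans extended by 50 kb (chr10:75975348-75975680, 42846 bp from Mmp11), 3 with equal numbers of peaks per list (the Mmp10, Smarcb1 and Mmp14 regions lower in KO replicates 1 and 2), and 0 to 1 with a library left out (1 without KO replicate 2, inside Timp3). The 0 KO-only regions became 1 with a peak asked in at least 2 of 3 libraries (inside Timp2), 2 with equal numbers of peaks (the Mmp11 region that rose and the Mmp16 region), and 0 to 1 with a library left out (1 without f/f replicate 1, at Mmp16, and 1 without KO replicate 3, inside Timp2). Over all regions, 1213 of 42821 were f/f-only and 1112 KO-only with equal numbers of peaks, beside 3 and 2 of 46 here. Without KO replicate 2, 5196 of all 86485 were f/f-only. KO-only were 2664 of all 89410 with at least 2 of 3 libraries, 197 of 87688 without f/f replicate 1 and 2594 of 88452 without KO replicate 3. The mean difference in regions with a peak, −2.33, was 0.667 with spans extended by 3 kb, −10.7 with 50 kb and between −6.67 and 4.83 with a library left out. The 4 regions lower in KO became 2 with 3 kb, 0 by ranks of fold (4 of 35 at an unadjusted p below 0.05) and 2 to 7 with a library left out, the 7 without KO replicate 3 and the 2 without any 1 f/f library. The 5 higher became 3 with 3 kb, 1 by ranks of fold, 3 on percentiles, 2 with equal numbers of peaks and 2 to 5 with a library left out (2 without f/f replicate 3 or KO replicate 2, 3 without f/f replicate 2). By ranks of fold, 394 of all 29849 regions were lower and 446 higher. At an unadjusted p below 0.05 in either direction were 21.0% of all regions by limma, beside 10 of the 35. With equal numbers of peaks, 2149 of all 24017 regions were lower and 2491 higher. By ranks of fold without KO replicate 3, an alternative chosen after seeing the data, 3 of 47 were lower and 2 higher, beside 2507 and 2418 of all 46992 regions. The mean difference in regions with a peak thus turned its sign with 3 kb and without KO replicate 3, no region called in the report turned its direction, and the cause was not tested. Replicate numbers were not shown to pair the libraries (correlations of same-numbered libraries 0.0486, −0.122 and −0.138). With the replicate number as a block, 4 regions were lower and 4 higher, Timp2 chr11:118365082-118365777 being lost (limma adjusted p = 0.0648), and the differences in regions with a peak were 4, 8 and −19, on which no test was run. Regions with no peak in the short list of KO replicate 3 can lie below its threshold, which these lists cannot show.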

Other observations

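The wider neighbourhoods of the genes were described within 2.5 Mb on either side of each gene span, leaving out the MMP and TIMP regions themselves. Around Mmp16 there were 35 regions, 14 of them in all 6 lists, with a median KO minus f/f difference of 7.74 percentile points and no region present in all of 1 group and absent from all of the other. Around Mmp3 there were 66 regions, 22 of them in all 6 lists, with a median difference of 2.62 and again no such region. Around Timp2 there were 700 regions, the most of the 10 genes, with a median difference of −2.86 over 277 in all 6 lists, 23 f/f-only regions (3.29%) and 2 KO-only regions. Over the whole series 3.75% of regions were f/f-only and 0.179% KO-only. Mmp14 had the highest f/f-only share in its neighbourhood (12 of 179 regions, 6.70%). No test was run on these values.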
